A study of Rattus norvegicus with 6 samples.

Results

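Axon guidance ligands and receptors were examined in rat pancreatic islets before and after birth. The genes were chosen by name: every row of the deposited expression table whose symbol begins as a class-numbered semaphorin, a plexin, a neuropilin, an ephrin, an Eph receptor, a Slit, a Robo, a netrin or an UNC5, together with Dcc. The naming rule was chosen with earlier results of these data known. This rule found 65 genes of 18625 named in the table. Of them, 34 encode ligands and 31 receptors or co-receptors. Counted among the receptors is Unc5cl, whose product resembles UNC5C but is known for inflammatory signalling and not as a netrin receptor. Efna3, Epha6, Plxna3, Plxnb3 and Unc5a are not analysed here.

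Total RNA was sequenced from freshly isolated rat islets in 6 libraries. The fetal group holds 3 libraries of embryonic day 19 (E19), labelled fetal pancreatic islet cells. The postnatal group holds 3 libraries labelled neonatal pancreatic islet cells, all titled as 2 weeks old. Their age entries disagree with the titles: replicate 1 is entered as week 2, replicate 2 as week 3 and replicate 3 as week 4. No treatment, genotype or strain is named for either group. The comparison asks how transcripts differ between late fetal life and the weeks after birth. Expression is given as scaled CPM, counts per 1 M reads of a library size that was adjusted between libraries. The libraries held 26.1 to 37.8 M reads, so that 3 reads were worth 0.0726 to 0.152 scaled CPM. Whether the replicates are different animals is not labelled, and the p-values then cover only variation among these libraries, which may be technical. Fetal replicate 2 stood apart in summed hepatic markers (7904 scaled CPM, against 390 and 585 in the other fetal libraries), and postnatal replicate 1 in acinar markers (483657, against 177892 and 165445). Without these 2 libraries 32 of the genes described here were called higher after birth and 6 lower, against 29 and 5 with them.

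Guidance cues were named for steering growing axons, and the same ligands and receptors position cells, shape blood vessels and pass signals between neighbouring epithelial cells. Semaphorins bind plexins, with neuropilins as co-receptors for most of the secreted class 3. Ephrins and Eph receptors sit on facing membranes and can signal in both directions. Slits act on Robo receptors, and netrins on DCC and UNC5 receptors. In the pancreas, EphA5 and ephrin-A5 are known for contact between beta cells that tunes insulin release, Robo1 and Robo2 for islet architecture, and semaphorin 3a for the movement of endocrine cells out of the epithelium.

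After birth, more of these genes were higher than lower. Of the 65, 60 passed the filter on low values (at least 1 scaled CPM in at least 3 libraries), and a gene that passed only through the group where it is high had to differ. This holds for Ntn4 and Epha8, high after birth, and for Efna2, high before. Their direction and lack of overlap were fixed by the filter. Of these 60, 29 were higher in the postnatal libraries, 5 were lower and 26 were not called (limma, Benjamini-Hochberg adjusted p under 0.05 over all 12926 genes tested). Among all genes tested, 30.0% were called higher, 33.1% lower and 63.1% in either direction. The members' 48.3% called higher stood above the background and their 8.33% called lower stood below it. Because the naming rule was chosen with earlier results of these data known, the contrast only describes this set. Their median log2 fold change was 0.45, beside -0.03 over all genes tested. Of the 60 tested members, 14 were called higher by at least 2-fold and 1 lower by at least 2-fold, where the background is 14.8% and 12.1% of all genes tested. The postnatal values lay above all fetal values in 28 tested members and below them in 8 (background 33.1% and 36.9%, or 70.0% on either side).

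**Figure D1:**
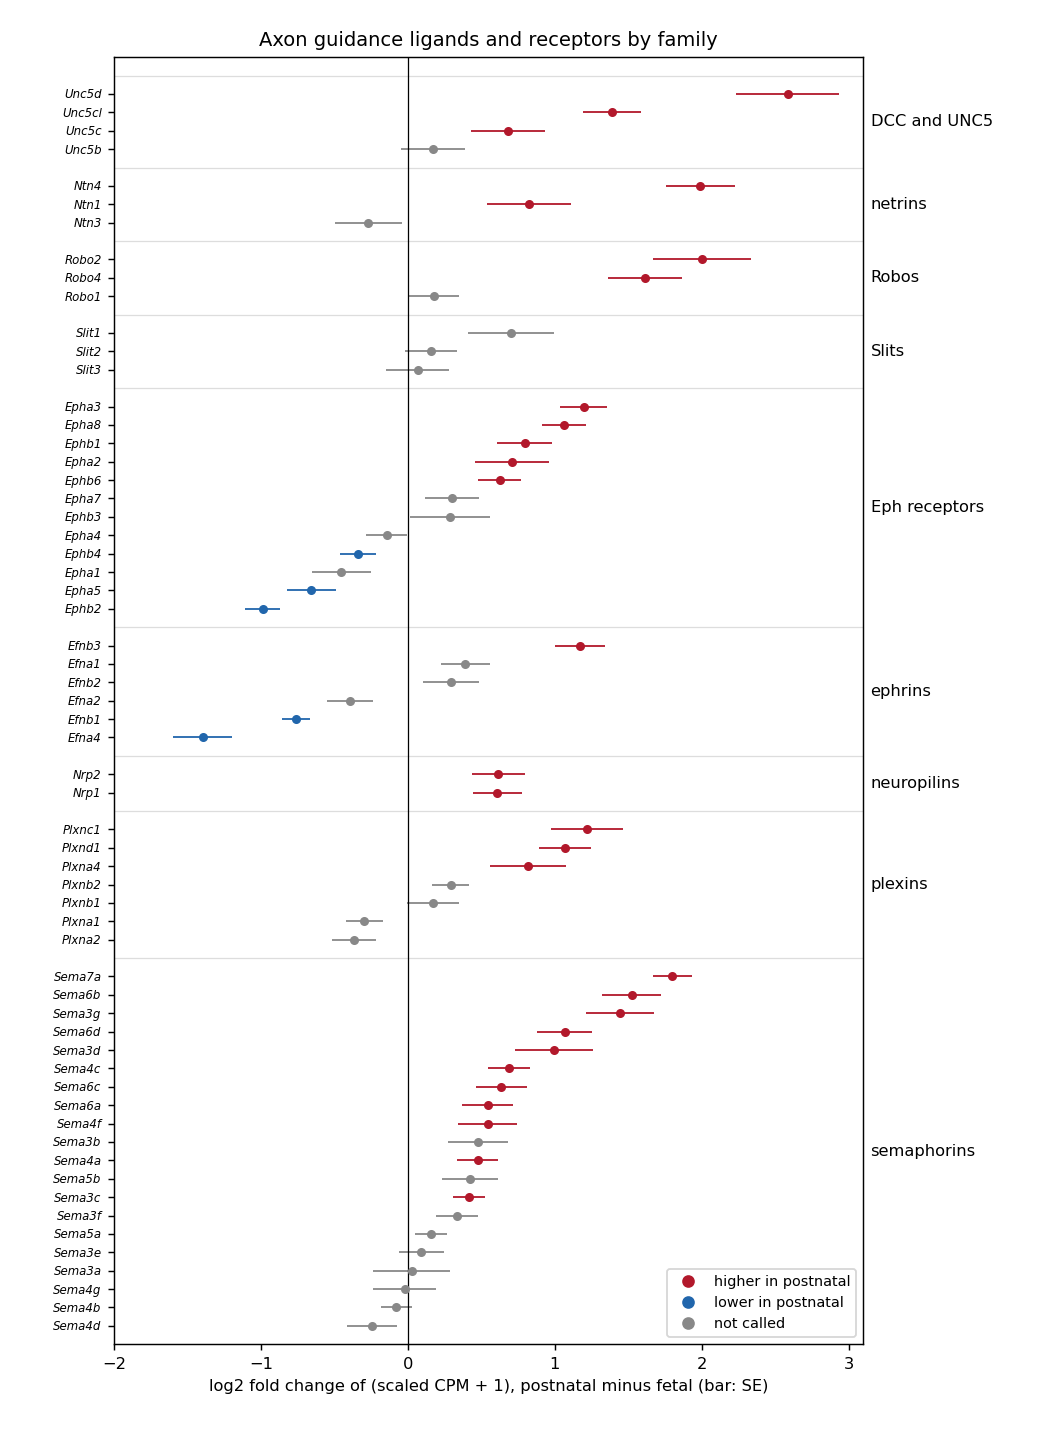
The change of each of the 60 tested members is plotted as log2 fold change of (scaled CPM + 1), postnatal minus fetal, with bars for the standard error and members grouped by family. Colour marks the 29 members called higher, the 5 called lower and the 26 not called; the semaphorins, plexins, neuropilins, Robos, netrins and UNC5 genes have no member called lower, and all 5 falls are among ephrins and Eph receptors.

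The number of calls depended on how libraries were scaled. With the plain library total as scale the median of all genes was -0.36. Under it 11 members were called higher and 8 lower, which makes 57.9% of the members' calls higher in place of 85.3%. The members' median then was 0.14. After rescaling without the 20 highest genes 37 were higher and 4 lower, with medians of 0.65 for the members and 0.21 for all genes. The distance between the members' median and that of all genes was 0.47 with the authors' scaling, 0.50 with the library total and 0.45 without the 20 highest genes. None of the 34 called members changed sign under any of 17 alternatives, and 15 stayed called under all that tested them: Unc5d, Robo2, Ntn4, Sema7a, Robo4, Sema6b, Sema3g, Unc5cl, Epha3, Efnb3 and Epha8 higher, and Efna4, Ephb2, Efnb1 and Epha5 lower.

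**Figure D2:**
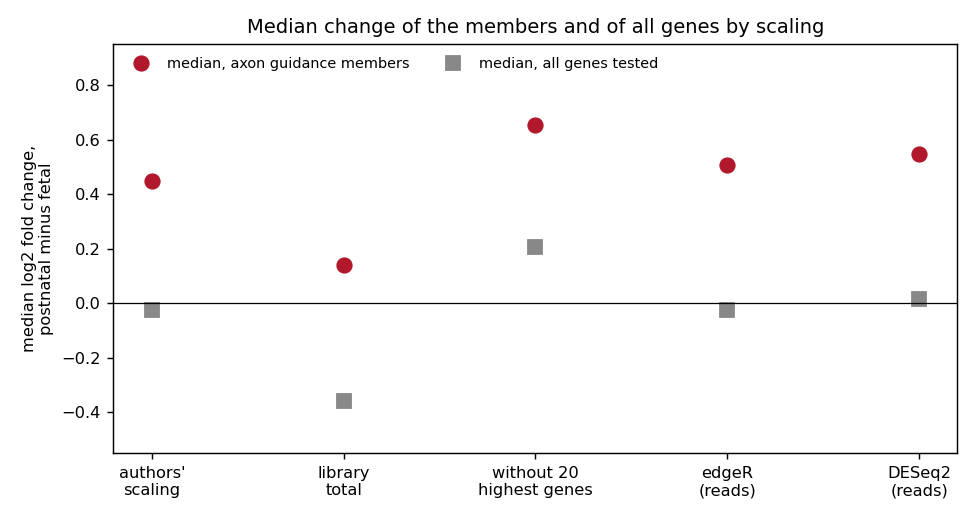
The median log2 fold change (postnatal minus fetal) is shown for the tested axon guidance members and for all genes tested under 5 scalings or count tests named on the x axis. Both medians move together, from 0.14 and -0.36 with the library total to 0.65 and 0.21 without the 20 highest genes, and the members' median stays above that of all genes.

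**Figure D3:**
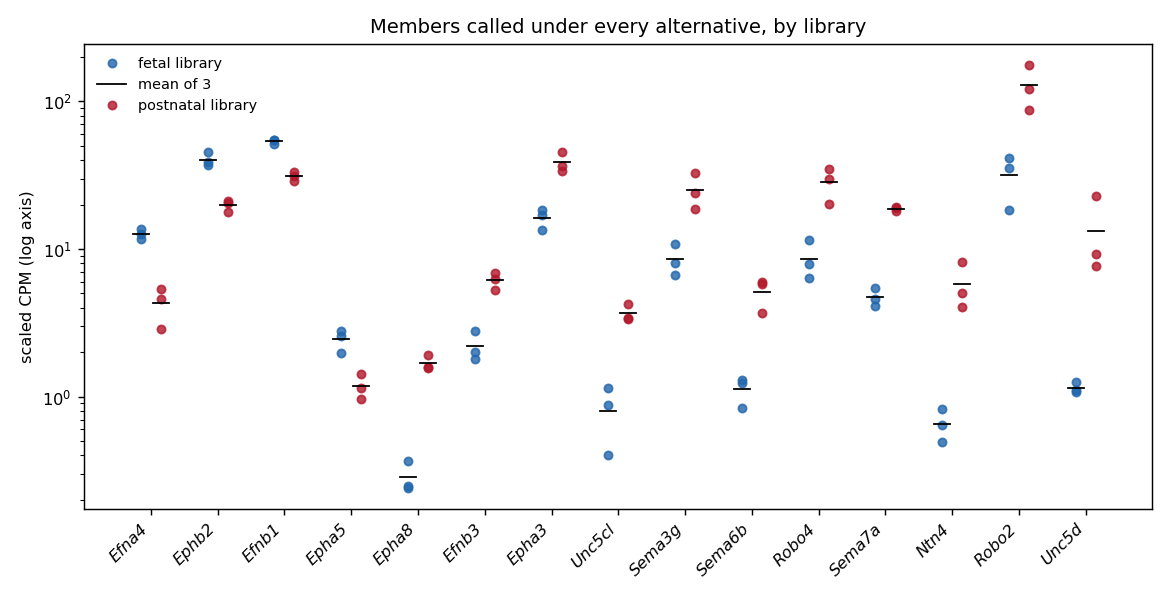
Each point is the scaled CPM of 1 library (log axis) for the 15 members called under every alternative that tested them, with the mean of 3 libraries as a short line, ordered by log2 fold change. In each of these members the fetal and postnatal libraries do not overlap. For Ntn4 and Epha8, which passed the filter only through the postnatal libraries, this was fixed in advance. Robo2 is at 87.5 to 176 in the postnatal libraries and 18.4 to 41.4 in the fetal ones.

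Semaphorins were the largest family. All 20 were tested, 11 were higher, 0 were lower and 9 were not called (limma), with a median log2 fold change of 0.48. The share called higher was 55%, where 30.0% of all genes were higher and 33.1% lower. No semaphorin was lower at an unadjusted p under 0.05 either (0 of 20), nor by edgeR or DESeq2 (0 each). With the library total as scale 3 of them stayed higher (Sema3g, Sema6b and Sema7a), and the median was 0.16. Sema7a, the membrane-anchored semaphorin that also signals through integrins, stood at 4.61, 5.42 and 4.10 scaled CPM in fetal replicates 1, 2 and 3 and at 19.4, 18.9 and 18.1 in postnatal replicates 1, 2 and 3. The replicates of each group were close and far from the other group (log2 fold change 1.80 ± 0.13 SE). All 4 transmembrane class 6 genes rose, Sema6b from 1.12 ± 0.250 to 5.15 ± 1.26 (mean ± SD, n = 3 each; log2 fold change 1.52 ± 0.20) and Sema6d from 22.7, 23.7 and 18.7 to 35.5, 59.5 and 46.8 (1.07 ± 0.19). Sema6c (0.64) and Sema6a (0.54) changed less. Sema6a was not called without fetal replicate 2, fetal replicate 3 or postnatal replicate 2 (adjusted p = 0.0599, 0.0907 and 0.0860).

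Secreted class 3 semaphorins divided into risers and genes that did not pass. Sema3g, a class 3 ligand known from endothelium, was at 8.04, 10.8 and 6.63 in the fetal and at 18.7, 32.5 and 24.0 in the postnatal libraries (log2 fold change 1.45 ± 0.23). Sema3d rose by 0.99 ± 0.27 and Sema3c from 61.1 ± 5.75 to 81.7 ± 6.54 (0.41 ± 0.11), and the Sema3c call ended without fetal replicate 2 (adjusted p = 0.0524). Sema3a, the classic repellent cue, was at 5.71, 4.65 and 2.90 before and 2.99, 5.51 and 4.99 after birth, so the groups overlapped (0.02 ± 0.26; adjusted p = 0.942). Its genomic neighbour Sema3d, with no coding gene between them in RefSeq, was called. The angiogenic regulator Sema3e (0.09 ± 0.15) and Sema3f (0.33 ± 0.14; adjusted p = 0.0701) did not pass. Sema3f was called without postnatal replicate 1 (adjusted p = 0.0109), by DESeq2 (adjusted p = 0.0378) and after rescaling without the 20 highest genes (adjusted p = 0.0273), but stood at -0.01 with the library total as scale. Sema3b, at 9.37 ± 2.42 and 13.3 ± 2.56, was likewise called only without fetal replicate 1, without postnatal replicate 1, by DESeq2 or after rescaling without the 20 highest genes.

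In class 4, Sema4c rose by 0.69 ± 0.14, Sema4a by 0.47 ± 0.14 and Sema4f by 0.54 ± 0.20. The Sema4a call was lost without fetal replicate 3 (adjusted p = 0.0703), and the Sema4f call, from a level of 0.894 ± 0.323, without either fetal replicate 2 or 3 or postnatal replicate 2 or 3 (adjusted p = 0.102 to 0.142). Sema4d, a ligand of plexin-B1 also found on lymphocytes, was at 19.2 ± 3.59 and 16.0 ± 2.56 and was not called. Sema4b and Sema4g had log2 fold changes of -0.08 and -0.02. Of the class 5 genes, Sema5a stood at 91.0 ± 4.64 and 102 ± 10.9, and Sema5b at 2.58 ± 0.583 and 3.81 ± 0.825. Neither was called, though Sema5b was without postnatal replicate 1 (adjusted p = 0.0396), and both were after rescaling without the 20 highest genes.

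Among the semaphorin receptors, 3 of 7 plexins and both neuropilins were higher and 0 were lower (limma, and edgeR and DESeq2 alike). For the plexins this is 42.9% higher, where 30.0% of all genes were higher and 33.1% lower. At an unadjusted p under 0.05, 2 plexins were lower, Plxna1 and Plxna2. The median plexin log2 fold change of 0.29 turned to -0.06 with the library total as scale. Plxnd1, the plexin of blood vessels and receptor of semaphorin 3e, was at 76.8, 97.0 and 67.6 in the fetal and 141, 205 and 164 in the postnatal libraries. Its groups did not overlap (log2 fold change 1.07 ± 0.18; adjusted p = 0.00128), and with the library total as scale the adjusted p was 0.0520. Plxnc1, the receptor of semaphorin 7a, rose beside its ligand from 4.07 ± 1.21 to 10.8 ± 2.88 (1.22 ± 0.24). Plxna4 was highest in postnatal replicate 1 (53.1, against 31.0 and 24.4). Its rise of 0.82 ± 0.26 was 0.51 without that library, and the call ended without fetal replicate 1 or 3 (adjusted p = 0.0721 and 0.0715).

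Plxna1 and Plxna2, which pair with neuropilins, had lower means after birth but did not pass. Plxna1 was at 58.1 ± 8.88 and 46.8 ± 2.86 (adjusted p = 0.0698) and was called lower without fetal replicate 2 (adjusted p = 0.0451). Plxna2 was at 83.5 ± 4.93 and 65.2 ± 13.8 (adjusted p = 0.0614) and was called lower without postnatal replicate 1, where its log2 fold change was -0.53. With the library total as scale these were the 2 plexins called, both lower, and no plexin was higher. Plxnb1, the semaphorin 4d receptor, stood at 49.6 ± 9.13 and 56.0 ± 10.5. Plxnb2, at 164 ± 25.9 and 200 ± 5.65, was called higher without fetal replicate 1 (adjusted p = 0.0122). The shared VEGF and semaphorin co-receptors Nrp1 (107 ± 11.5 to 165 ± 33.4) and Nrp2 (20.4 ± 3.95 to 31.7 ± 5.58) each rose by 0.61 on the log2 scale. Neither was called with the library total as scale (adjusted p = 0.460 and 0.461). Without postnatal replicate 2 the adjusted p was 0.0514 for Nrp1 and 0.0692 for Nrp2, and without fetal replicate 3 it was 0.0575 for Nrp2.

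In the main test, with the authors' scaling and all libraries, every member called lower was an ephrin or an Eph receptor. Of 6 ephrins tested, 1 was higher and 2 lower. The 33.3% of ephrins called lower was near the 33.1% of all genes, and 16.7% were higher, beside 30.0%. Efna4, encoding the glycolipid-anchored ephrin-A4, was at 13.7, 11.7 and 12.5 in the fetal and at 5.37, 4.61 and 2.87 in the postnatal libraries (log2 fold change -1.40 ± 0.20; adjusted p = 6.55e-04). Efnb1, encoding the transmembrane ephrin-B1, fell from 53.6 ± 2.00 to 31.2 ± 2.15 (-0.76 ± 0.10). Efnb3, another B-type ligand, rose from 2.19 ± 0.511 to 6.15 ± 0.794 (1.17 ± 0.17), so that 2 genes of the same subclass moved in opposite directions. Efnb2, the ligand known from arteries, was at 12.1, 9.99 and 11.2 before and 10.1, 16.6 and 15.4 after birth. It was not called, with postnatal replicate 1 inside the fetal range, and without that library its rise was 0.50 (adjusted p = 0.0143). Efna2 was lower in every postnatal library (1.15 ± 0.0579 and 0.643 ± 0.189) without being called (adjusted p = 0.0552), and it was called without postnatal replicate 2 (adjusted p = 0.0481). It entered the tests only through the fetal libraries, so its direction was fixed in advance.

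Efna1 and Efna4 are near neighbours on chromosome 2 of the RefSeq assembly GRCr8, with only Efna3 between them, yet Efna1 was not called: it was at 11.1 ± 2.43 and 14.7 ± 1.49 (adjusted p = 0.0726, and 0.0196 without fetal replicate 2). The 250 bases before each RefSeq start are shown because the neighbouring genes differ in their change, with the dinucleotide CG in capitals (the motif reads the same on both strands). Efna4 (chr2:177050714-177050963, minus strand) has 5 CG and Efna1 (chr2:176986822-176987071, minus strand) has 23. The median over 33469 promoter windows of this length was 5, 92.2% of them held at least 1, and the median over the 51 members with a window was 14. These counts describe letters in the window only.
Efna4: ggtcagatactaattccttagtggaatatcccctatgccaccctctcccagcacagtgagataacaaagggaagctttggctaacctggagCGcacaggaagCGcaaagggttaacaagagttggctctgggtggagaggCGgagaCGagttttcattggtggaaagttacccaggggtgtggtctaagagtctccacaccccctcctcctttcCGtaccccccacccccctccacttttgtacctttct
Efna1: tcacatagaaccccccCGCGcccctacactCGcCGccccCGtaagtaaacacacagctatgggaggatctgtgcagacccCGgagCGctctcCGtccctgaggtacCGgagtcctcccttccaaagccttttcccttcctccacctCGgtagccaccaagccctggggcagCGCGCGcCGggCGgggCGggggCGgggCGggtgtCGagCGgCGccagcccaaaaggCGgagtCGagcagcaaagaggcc

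Of 12 Eph receptors tested, 5 were higher and 3 lower, and the 66.7% called in either direction was near the 63.1% of all genes. With the library total as scale 2 were higher and 4 lower, where 13.8% of all genes were higher and 39.6% lower. The family's median log2 fold change was 0.29 with the authors' scaling and turned to -0.05 with the library total. Ephb2, a receptor of B-type ephrins known from epithelial boundaries, was at 45.2, 37.1 and 38.9 in the fetal and at 17.7, 21.2 and 20.6 in the postnatal libraries (log2 fold change -0.99 ± 0.12). Every postnatal value was lower than every fetal one. Epha8, separated from Ephb2 in RefSeq by 3 complement genes and counted among the higher receptors, rose from 0.286 ± 0.0717 to 1.69 ± 0.194 (1.06 ± 0.15). It passed the filter only through the postnatal libraries, so this direction was fixed in advance and makes no contrast with Ephb2. Epha3, a receptor known from mesenchyme, rose from 16.3 ± 2.57 to 38.6 ± 6.20 (1.20 ± 0.16). Ephb1 (0.79 ± 0.19) and the kinase-inactive Ephb6 (0.62 ± 0.15) rose as well.

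Epha5, the partner of ephrin-A5 in beta cell contact, fell from 2.79, 1.98 and 2.56 to 0.962, 1.14 and 1.43 (log2 fold change -0.66 ± 0.17; adjusted p = 0.00956). In the same libraries the endocrine transcription factor genes Pdx1 (mean 33.4 to 46.6) and Isl1 (16.3 to 41.5) were called higher and Nkx6-1 (22.6 to 32.9) was not called. Epha2, an epithelial receptor that binds ephrin-A1, was at 15.4 ± 3.02 and 26.5 ± 8.40 with postnatal replicate 1 (16.8) inside the fetal range. Its call (0.71 ± 0.25; adjusted p = 0.0386) was lost without fetal replicate 2 or 3 or postnatal replicate 2 or 3 (adjusted p = 0.0998 to 0.125). Ephb4, the venous receptor of ephrin-B2, fell from 94.8 ± 4.31 to 75.1 ± 11.6 (-0.34 ± 0.12; adjusted p = 0.0422). This call was lost with edgeR (adjusted p = 0.0502), with DESeq2 (adjusted p = 0.0697), with scaling that left out the 20 highest genes (adjusted p = 0.511), and without any single library except postnatal replicate 2 (adjusted p = 0.0686 to 0.130). Epha1, Epha4, Epha7 and Ephb3 did not pass, with log2 fold changes between -0.45 and 0.30. Ephb3 was at 43.6, 30.0 and 19.0 in the postnatal libraries and was called without postnatal replicate 3 (adjusted p = 0.0394).

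In the Slit and Robo system 2 of 3 receptors tested were higher and 0 of 3 ligands were called (limma, edgeR and DESeq2), with Slit1 alone among the ligands at an unadjusted p under 0.05. Over all genes tested, 30.0% were higher and 63.1% were called in either direction. Robo2, a receptor known from islet endocrine cells, was at 41.4, 35.4 and 18.4 in the fetal and at 87.5, 122 and 176 in the postnatal libraries. The groups were far apart although each varied, and the log2 fold change was 2.00 ± 0.33 (adjusted p = 0.00139). Robo1, separated from it by 1 coding gene on chromosome 11, overlapped between the groups at 32.6 ± 6.13 and 36.9 ± 6.65 (0.17 ± 0.18; adjusted p = 0.413). Robo4, the endothelial member of the family, was at 6.36, 11.6 and 7.89 before and 20.2, 34.8 and 30.0 after birth (1.61 ± 0.25). Robo3, its neighbour on chromosome 8, was not tested at 0.0308 to 0.215 and 0.354 to 0.478. The Robo3 and Robo4 gene models overlap in RefSeq, so reads at their shared end cannot be told apart without the strand setting of the counting.

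Slit2 stood at 24.7 ± 4.95 and 27.6 ± 5.27, and Slit3 at 67.8 ± 20.8 and 69.4 ± 10.9. Both overlapped between the groups, with log2 fold changes of 0.16 ± 0.18 and 0.07 ± 0.22. The median of the 3 Slits turned from 0.16 to -0.18 with the library total as scale. Slit1, at 4.94, 3.44 and 1.73 before and 4.66, 5.64 and 7.24 after birth, did not pass (0.70 ± 0.29; adjusted p = 0.0662), but did without fetal replicate 1 (adjusted p = 0.0225) or postnatal replicate 1 (adjusted p = 0.0474). That Robos changed more than Slits was not tested.

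Of 3 netrins tested 2 were higher, and of 4 genes of the DCC and UNC5 family 3 were, where 30.0% of all genes were higher. The latter count includes Unc5cl, which is not known as a netrin receptor. Unc5d, a dependence receptor of the UNC5 family, was at 1.11, 1.26 and 1.08 in the fetal and at 22.9, 9.29 and 7.68 in the postnatal libraries. The log2 fold change was 2.59 ± 0.35 (adjusted p = 5.30e-04), and 2.14 without postnatal replicate 1, which was far above the other postnatal libraries. It was the largest log2 fold change among the tested members with all libraries, but without that library Robo2 (2.25) and Ntn4 (2.18) were above it, and with a pseudocount of 5 Robo2 was (1.87, against 1.48 for Unc5d). Ntn4, a laminin-related netrin of basement membranes, rose from 0.645, 0.823 and 0.493 to 4.05, 8.19 and 5.05 (1.99 ± 0.23). Counted among the higher netrins, Ntn4 passed the filter only through the postnatal libraries, so its direction was fixed in advance. Ntn1, the classic netrin, was at 27.8, 26.6 and 23.2 before and 76.3, 41.5 and 31.6 after birth. Its groups did not overlap and postnatal replicate 1 was highest. The log2 fold change was 0.82 ± 0.29 with that library and 0.47 without it (adjusted p = 0.0355 and 0.0247), and with the library total as scale the adjusted p was 0.101. The Ntn1 call was lost without any 1 of the fetal libraries or postnatal replicate 2 (adjusted p = 0.0565 to 0.109). Ntn3 overlapped between the groups at 2.57 ± 0.834 and 1.92 ± 0.486.

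Unc5c rose from 6.59 ± 1.72 to 11.3 ± 3.39 (0.68 ± 0.25; adjusted p = 0.0462), a call lost without fetal replicate 1 or 3 or postnatal replicate 2 or 3 (adjusted p = 0.126 to 0.144). Unc5b, the UNC5 receptor of endothelium, was at 8.75 ± 2.16 and 9.92 ± 2.28 and was not called. Unc5cl rose from 0.803 ± 0.372 to 3.66 ± 0.495 (1.39 ± 0.20). Dcc, the attractive netrin receptor, was below the filter, with 32 reads in all fetal and 48 in all postnatal libraries, of which postnatal replicate 2 held the highest level (1.14, against 0.216 to 0.491 in the others). Efna5 (0.401 to 1.04 over the 6 libraries), Ntn5 (0.607 to 1.14) and Epha10 (0.101 to 0.338) were below the filter too, and their groups overlapped.

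Co-receptors and related cues outside the naming rule, from a list of 39 genes, gave 18 higher, 3 lower and 11 not called among 32 tested, and the 65.6% called in either direction was near the 63.1% of all genes. By direction, 56.25% were higher and 9.38% lower, beside 30.0% and 33.1% of all genes. Among the rises, Ntng1, Ntng2 and Cntn2 passed the filter only through the postnatal libraries. Their direction and lack of overlap were thus fixed in advance. The largest rises were those of the netrin-binding adhesion molecule gene Dscam (0.887 ± 0.446 to 8.80 ± 2.94; log2 fold change 2.35 ± 0.28) and of Cntn1, encoding contactin 1 (2.33 ± 0.22). Neo1, encoding the netrin and RGM receptor neogenin and chosen here after its values were seen because Dcc was low, rose from 84.1 ± 7.32 to 147 ± 8.23 (0.80 ± 0.10). Flrt2, a ligand of UNC5 receptors, fell by 0.91 ± 0.26 and the heparan sulfate carrier gene Gpc1 by 0.65 ± 0.19, though 0 of this list were lower after rescaling without the 20 highest genes. Of 58 intracellular effectors tested, 23 were higher and 11 lower, and the 58.6% called in either direction was near the 63.1% of all genes. Among these rises, Trim9 passed the filter only through the postnatal libraries, so its direction was fixed in advance. By direction, 39.7% of the effectors were higher and 19.0% lower, beside 30.0% and 33.1% of all genes. With the library total as scale 8 were higher and 13 lower, beside 13.8% and 39.6% of all genes. The actin-binding protein gene Ablim3 rose by 2.08 ± 0.19 and the semaphorin mediator gene Crmp1 from 5.15 ± 1.31 to 16.5 ± 4.38. The small GTPase gene Rhod fell by 1.39 ± 0.18 and the kinase gene Pak1 by 0.91 ± 0.11. Median log2 fold changes were 0.58 for the co-receptors and 0.22 for the effectors, beside -0.03 for all genes, and that of the effectors turned to -0.12 with the library total as scale.

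Markers of several cell types moved between the groups, and their part in the changes above was not tested. In such bulk samples a change in the number of cells of a type and a change in RNA per cell cannot be told apart. The summed level of 10 endothelial markers (Robo4 left out) was 273 to 449 scaled CPM in the fetal and 777 to 1211 in the postnatal libraries, and all 10 were called higher. This 3.00-fold rise of the sum stands beside 3.29-fold for Robo4, 2.95-fold for Sema3g, 2.12-fold for Plxnd1 and 1.55-fold for Nrp1, as ratios of group means. Other members described above by endothelium, veins or arteries had ratios of 1.13 for Unc5b and 1.27 for Efnb2, neither of them called. For Ephb4, which was called lower, the ratio was 0.792. The endothelial sum and the former 4 genes were highest in fetal replicate 2 and postnatal replicate 2, and so were the mesenchymal and leukocyte sums, so this order is not particular to endothelial markers. The 10 mesenchymal markers in the table, all called higher, summed to 1623 to 2428 and 7112 to 12281, with Col3a1 alone making up 76.7% of the sum. The promoter windows of Robo4 (chr8:45308489-45308738, plus strand, GRCr8) and Sema3g (chr16:6419775-6420024, plus strand), 2 of the called members known from endothelium, are given in the same way and hold 6 and 5 CG.
Robo4: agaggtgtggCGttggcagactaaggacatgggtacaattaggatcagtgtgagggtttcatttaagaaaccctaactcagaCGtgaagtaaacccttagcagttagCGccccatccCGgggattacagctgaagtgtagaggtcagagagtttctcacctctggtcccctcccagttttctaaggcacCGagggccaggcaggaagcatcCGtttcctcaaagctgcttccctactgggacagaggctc
Sema3g: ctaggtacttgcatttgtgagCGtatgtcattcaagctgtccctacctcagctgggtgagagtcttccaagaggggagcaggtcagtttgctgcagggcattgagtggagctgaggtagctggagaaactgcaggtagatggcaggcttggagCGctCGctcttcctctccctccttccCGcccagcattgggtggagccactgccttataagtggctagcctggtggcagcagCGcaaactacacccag

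**Figure D4:**
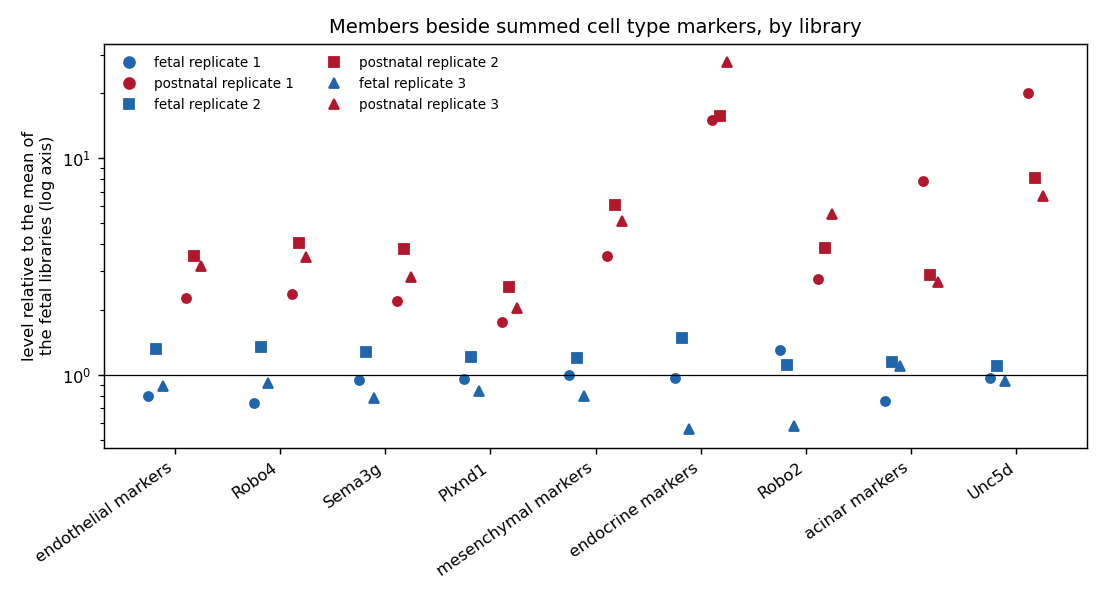
Levels of summed cell type markers and of 5 members are shown per library relative to the mean of the 3 fetal libraries (log axis), with a symbol per replicate. Robo4, Sema3g and Plxnd1 are highest in fetal replicate 2 and postnatal replicate 2, as the endothelial and mesenchymal sums are, and Unc5d and the acinar sum (7.81 times the fetal mean) are highest in postnatal replicate 1.

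Endocrine markers, 16 of 16 in the table and 15 called higher, summed to 2309 to 6051 in the fetal and 61559 to 113656 in the postnatal libraries, so islet endocrine transcripts were detected in every library. Hormone genes made up most of this sum, Gcg alone 34.7%. Robo2 and the endocrine sum were both lowest in fetal replicate 3 and highest in postnatal replicate 3, but Robo2 was highest among the fetal libraries in replicate 1 and the sum in replicate 2. Fetal replicate 3 was the lowest fetal library for 31 of the 60 tested members. Acinar markers summed to 46656 to 71034 before birth and to 483657, 177892 and 165445 in postnatal replicates 1, 2 and 3. In every library the acinar sum was above the endocrine sum, so the values above are not those of islet cells alone. Unc5d, Ntn1 and Plxna4 showed the order of the acinar sums in the postnatal libraries, while in the fetal libraries Unc5d lay between 1.08 and 1.26. Other members showed this postnatal order too, among them Epha1, Epha7, Ephb3, Plxna2, Sema4a and Efna4, the last called lower. The order is thus not particular to Unc5d, Ntn1 and Plxna4. Postnatal replicates 1, 2 and 3 are also entered as weeks 2, 3 and 4. Age entry and marker content therefore cannot be told apart in these orders, that of Robo2 included. Of 8 neuronal markers in the table, 5 were tested. Elavl4 (mean 3.60 to 8.45), Nefl (3.42 to 7.28) and Stmn2 (3.87 to 8.70) were called higher, Ret was called lower (147 to 67.0), and Nefm was not called. The untested Chat was at 0 to 0.102, Phox2a at 0.0242 to 0.338 and Nos1 at a mean of 0.179 before and 1.09 after birth. The neuronal sum was 140 to 185 in the fetal and 90.6 to 104 in the postnatal libraries, with Ret making up 83.4% of it. Among the 60 tested members, fetal replicate 1 held the highest fetal value in 38 and postnatal replicate 2 the highest postnatal value in 33. Over all genes tested the same libraries were highest in 27.1% and 27.2%.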

How the data were processed

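Per the labels' protocols, RNA came from islets extracted with TRIzol and RNeasy columns, and libraries from a stranded total RNA kit with ribosomal depletion. TopHat2 2.0.8b and edgeR 3.30.3 are named in the submitters' processing notes. The sources used here do not give the build, annotation, counter or strand setting. The authors deposited 1 table of normalized signal for 6 libraries. All values (100%) were whole multiples of 1 constant per library within 0.001 reads, and trimmed mean (TMM) factors recomputed from the recovered reads matched those in the constants to 3 significant digits, so the signal was read as CPM after TMM scaling. The row without a gene name (at most 9 reads a library) was left out of the tests.

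The main test was limma 3.58.1 (R 4.3.3, trend on) on log2(scaled CPM + 1), which understates the change of low genes, over genes at 1 or more in at least 3 libraries, with p-values two-sided and adjusted over all genes tested. The code was tested on simulated reads. Alternatives were other pseudocounts, filters and scalings, a robust trend, a replicate block, each library left out, and, on the recovered reads, edgeR 4.0.16 (quasi-likelihood) and DESeq2 1.42.0. Fits without a library kept the genes that passed the filter in the full set. Named genes were a fixed list of 29, all called members with at least a 2-fold change, and the largest rise and fall of each family; others are given to account for all members. The members and lists were chosen with earlier results of these data known. Some marker lists are not reported here. Gene names were matched to RefSeq GRCr8 for neighbours (65 of 65 members) and promoter windows (51), and 7 members overlap another coding gene there, among them Robo4 and Ephb4.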

Additional observations from a re-analysis of the deposited data

How the results depend on the processing

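The counts of 29 higher and 5 lower members were within 1.5 times of these values under all alternatives but 1. With the library total as scale they were 11 and 8, when 13.8% of all genes were higher and 39.6% lower. Leaving out 1 library gave 21 to 34 higher and 4 to 6 lower. Without fetal replicate 2 and postnatal replicate 1 together, chosen after the data were seen because they stand apart in liver and acinar transcripts, 32 were higher and 6 lower. The edgeR test gave 29 and 5, and DESeq2 31 and 4. By family, the library total moved the higher calls from 11 to 3 among semaphorins, 3 to 0 among plexins, 2 to 0 for neuropilins, 5 to 2 among Eph receptors, 2 to 1 among netrins, 18 to 9 among co-receptors and 23 to 8 among effectors, and the lower calls of co-receptors from 3 to 5. The Slits had 1 higher after rescaling without the 20 highest genes. Ephrins had 3 higher without the 2 libraries and 2 higher without the 20 highest genes, where no co-receptor was lower and 6 effectors were. Of the 29 higher members 11, and of the 5 lower members 4, stayed called under every alternative that tested them. With the replicate number as a block 27 were higher and 5 lower. Same-numbered libraries deviated from their group means with correlations of -0.21, 0.10 and -0.25 across genes, and no library correlated best with its own number. These correlations do not settle whether libraries of the same number were paired. Depth limits Robo3, Epha10, Epha8 and Dcc most, with 11, 24, 30 and 32 reads over the fetal libraries.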
